A study of Rattus norvegicus with 4 samples.

Results

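The coronins are a family of actin-binding proteins, and 6 of their genes, Coro1a, Coro1b, Coro1c, Coro2a, Coro2b and Coro7, were followed here over 4 Affymetrix rat genome arrays. They were taken by symbol: a probe set, the group of short probes that reads 1 transcript on the array, was used if the annotation gave it 1 gene symbol and that symbol was 1 of the 6. This gave 8 probe sets for the 6 genes, of 14217 genes measured. The family as a whole was chosen by a measured value, the large difference of Coro1a between L6-HGF and L6-WT monolayers, so every value of Coro1a is a description and carries no test. A seventh coronin, Coro6, has 1 probe set on the array, is not among the 6 and is described beside them.

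Each array holds RNA of L6 cells from 1 sample. L6 is a rat skeletal myoblast line whose labels give the strain Wistar. L6-WT is the wild-type line. L6-HGF carries a pBabepuro retroviral vector that expresses human hgf constitutively and was selected with puromycin. The sources do not say whether it is 1 clone, and no line with the empty vector was analysed here, so effects of hHGF and of vector and selection cannot be told apart. Each line was studied as a monolayer and as a sheet, which is a dense layer of myoblasts that comes off a thermoreactive dish in 1 piece. With 1 array per condition there are no replicates, so that a difference between 2 arrays has no measured error between samples. The 45 bacterial control probe sets give a technical scale: their difference between 2 arrays had an SD of 0.12 (log2) for the monolayers, 0.22 for the sheets, 0.18 for sheet against monolayer in L6-WT and 0.16 in L6-HGF. The deposited values are log2 deviations of each probe set from the median of its 4 arrays and hold no signal level. It is therefore not known from them how strongly any coronin is expressed, or whether markers of myoblasts are present, and levels of different genes cannot be compared.

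Coronins share a beta-propeller made of WD repeats, and most carry a C-terminal coiled coil through which they assemble. They bind the sides of actin filaments at the cell cortex, restrain the Arp2/3 complex, which starts filament branches, and bring in cofilin, which takes old filaments apart. Through these partners they act in cell migration, endocytosis and phagocytosis. The type I genes are Coro1a, best known from leukocytes, where it is needed for migration and survival of T cells, and the widely expressed Coro1b and Coro1c of the leading edge, with Coro6, which has been linked to acetylcholine receptor clusters of muscle. Coro2a and Coro2b are type II genes, and Coro7 encodes a protein of the Golgi with a tandem propeller and no coiled coil.

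The sequence just upstream of the 3 type I members is shown because these close relatives differ in their values below. The stretches are from RefSeq, build GRCr8, written 5′ to 3′ on the strand of the gene, and each ends at the outer edge of the annotated gene. Capitals mark the GC box, GGGCGG or its reverse complement. The stretch of Coro1a lies at chr1:190731134-190731353 on the minus strand, that of Coro1b at chr1:210872311-210872436 on the plus strand and that of Coro1c at chr12:48373323-48373572 on the plus strand.
Coro1a: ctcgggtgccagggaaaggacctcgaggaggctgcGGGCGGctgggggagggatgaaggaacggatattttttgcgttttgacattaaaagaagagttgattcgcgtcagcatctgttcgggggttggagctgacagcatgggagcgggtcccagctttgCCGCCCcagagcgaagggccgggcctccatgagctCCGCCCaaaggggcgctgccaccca
Coro1b: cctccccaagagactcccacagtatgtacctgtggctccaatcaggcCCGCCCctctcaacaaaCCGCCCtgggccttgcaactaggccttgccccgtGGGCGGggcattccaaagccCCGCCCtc
Coro1c: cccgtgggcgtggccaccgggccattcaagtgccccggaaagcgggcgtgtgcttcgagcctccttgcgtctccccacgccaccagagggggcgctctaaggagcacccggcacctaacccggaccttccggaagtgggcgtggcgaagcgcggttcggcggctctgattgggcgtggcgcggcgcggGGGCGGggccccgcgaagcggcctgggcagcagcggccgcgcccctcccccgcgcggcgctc
The 3 stretches are all rich in G and C, and GC boxes are spread along those of Coro1a and Coro1b.

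All 6 genes matched an entry in that table of promoters, which covers 250 bases before and 50 after a start site. For Coro1a and Coro1b that site lies inside the annotated gene, so their stretches above have 220 and 126 bases in place of 250. In these windows of 300 bases, the GC box occurs 3 times in Coro1a, 7 times in Coro1b and 1 time in Coro1c, and of the 7 in Coro1b the stretch above holds 4. It was not found in Coro2a, Coro2b and Coro7, and 33.1% of 33469 promoter entries hold it. The share of G and C is 63% in Coro1a, 69.3% in Coro1b and 75% in Coro1c, 48% in Coro2a, 61.3% in Coro2b and 58% in Coro7, against a median of 51.7% over all entries. The TATA box (TATAAA, in 14.2% of entries) and the CArG box, the motif that binds serum response factor at many actin genes (1.64% of entries), were found in none of the 6. CCAAT, in 37.5% of entries, was found in Coro1b, Coro1c and Coro7. The ETS core CCGGAA, in 15% of entries, has 3 matches in Coro1c and was found in no other member. Some of these matches overlap on opposite strands, at TTCCGGAA. Both strands were searched for every motif, no motif searched is part of another, and a match is a description of the letters only.

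Coro1a was high on the L6-HGF arrays and low on the L6-WT arrays, in monolayers and in sheets. Its 1 probe set had a centred log2 value of 1.57 in the L6-HGF monolayer, 0.55 in the L6-HGF sheet, -0.55 in the L6-WT monolayer and -0.80 in the L6-WT sheet. Because every probe set is centred on its median, the 2 middle arrays always have equal values of opposite sign. The 2 L6-WT arrays lay below the 2 L6-HGF arrays, and the L6-HGF monolayer was the highest. Between lines, Coro1a was 4.35-fold higher in L6-HGF monolayers (log2 difference 2.12) and 2.54-fold higher in L6-HGF sheets (1.34). It ranked 1 among 14217 genes ordered from the most positive difference in monolayers, and 27 in sheets. These values chose the gene or share its contrast, and support nothing beyond a description of the 4 arrays.

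**Figure D1:**
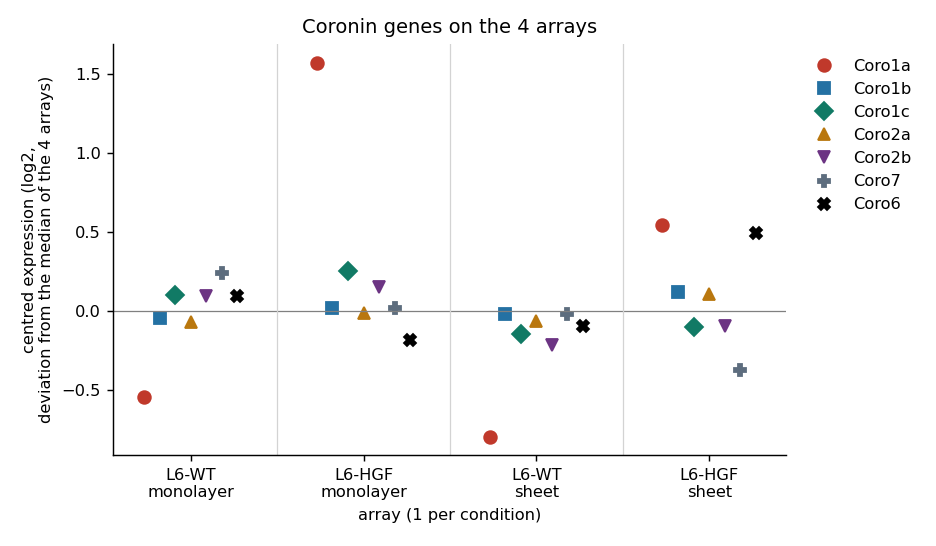
Centred expression (log2 deviation from the median of the 4 arrays, vertical axis) of the 6 coronin genes and Coro6 on each array (horizontal axis, 1 array per condition, no error bars), with 1 symbol per gene. Coro1a runs from -0.80 in the L6-WT sheet to 1.57 in the L6-HGF monolayer, whereas the other 5 members stay between -0.37 and 0.25.

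The other type I members had differences between the lines near 0. Coro1b, which acts at the leading edge and works with the Slingshot phosphatases that switch cofilin on, had values of 0.02 in the L6-HGF monolayer, 0.12 in the L6-HGF sheet, -0.04 in the L6-WT monolayer and -0.02 in the L6-WT sheet. Its 4 arrays spanned 0.16 (log2), and 11.6% of all genes had a smaller span. L6-HGF minus L6-WT gave 0.06 in monolayers and 0.14 in sheets, within the SD of the control probe sets in each format.

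Coro1c, which takes part in migration and in the trafficking of the GTPase Rac1, had 0.25 in the L6-HGF monolayer, -0.10 in the L6-HGF sheet, 0.10 in the L6-WT monolayer and -0.15 in the L6-WT sheet, as the mean of 2 probe sets. The monolayer arrays were thus the higher ones in each line. Its difference between lines was 0.15 in monolayers, from probe sets at 0.10 and 0.20, and 0.05 in sheets, from 0.02 and 0.07. Both probe sets had the same sign in each format.

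Of the type II genes, Coro2a, which is also a subunit of the NCoR corepressor complex in the nucleus, had -0.01 in the L6-HGF monolayer, 0.11 in the L6-HGF sheet, -0.07 in the L6-WT monolayer and -0.07 in the L6-WT sheet. The 4 arrays spanned 0.18, which is nearly as narrow as for Coro1b. Its difference between lines was 0.06 in monolayers and 0.18 in sheets, but its 2 probe sets disagreed in sign in monolayers, with 0.17 and -0.06, and had 0.04 and 0.31 in sheets.

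Coro2b, a relative best known from the nervous system, had 0.15 in the L6-HGF monolayer, -0.10 in the L6-HGF sheet, 0.10 in the L6-WT monolayer and -0.21 in the L6-WT sheet. As for Coro1c, the 2 monolayers lay above the 2 sheets. Between lines it differed by 0.06 in monolayers and 0.12 in sheets.

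Coro7, the Golgi coronin, was the member with values below 0 in both comparisons of the lines. It had 0.02 in the L6-HGF monolayer, -0.37 in the L6-HGF sheet, 0.24 in the L6-WT monolayer and -0.02 in the L6-WT sheet. L6-HGF minus L6-WT gave -0.22 in monolayers and -0.35 in sheets, opposite in sign to that of Coro1a in each format. In size these values exceeded the SD of the control probe sets and stayed within 2-fold. They were smaller than the largest control value, 0.35 in monolayers and 0.51 in sheets. The span over the 4 arrays was 0.61, the widest among the members after Coro1a.

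Of the 6 members, Coro1a was past 2-fold between the lines in monolayers and in sheets, and the other 5 were not. Past 2-fold were 0.535% of all genes in monolayers and 1.44% in sheets, so 0 of 5 is what most sets of 5 genes would show and says nothing particular about the other members. Their differences lay between -0.22 and 0.15 in monolayers, with a median size of 0.06 against 0.13 over all genes. In sheets they lay between -0.35 and 0.18, with a median size of 0.14 against 0.15 over all genes. In each format 4 of the 5 had values above 0, Coro7 being the exception. Of all genes, 49.4% in monolayers and 53.7% in sheets had values below 0, and the count of signs was not tested. With a threshold of 1.5-fold, which 2.51% of all genes passed in monolayers and 5.78% in sheets, Coro1a was again the member past it. The other 5 members did not have values as large as those of Coro1a, for which the family was chosen. The largest of them in size, that of Coro7 in sheets, exceeded 83.1% of all genes. Coro6, which is outside the 6, was past 1.5-fold in sheets with 0.59, larger in size than 94.3% of all genes.

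**Figure D2:**
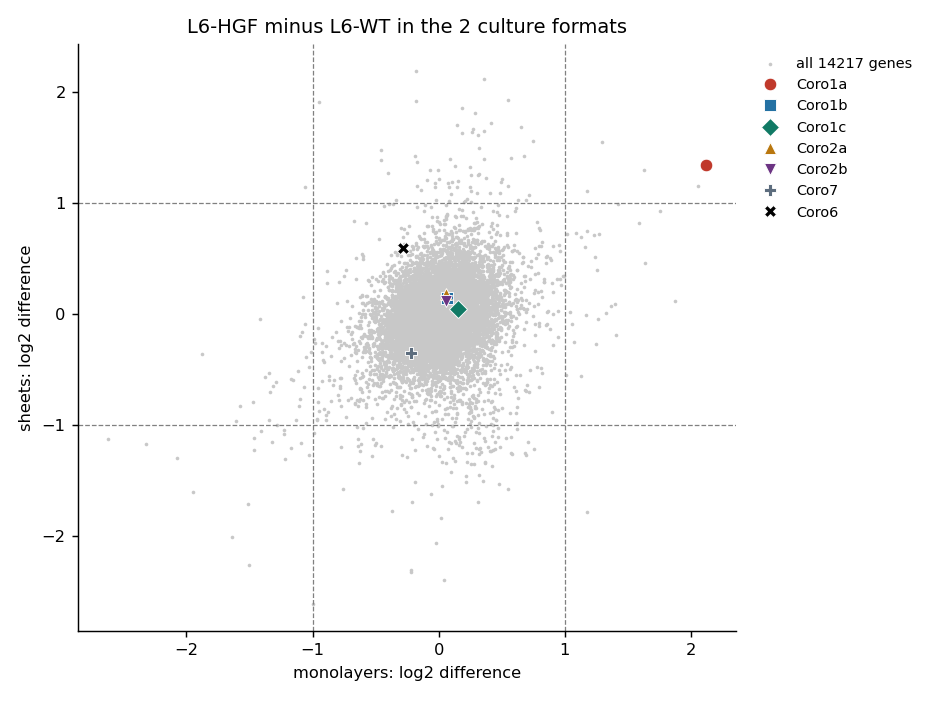
L6-HGF minus L6-WT on the log2 scale, with the monolayer arrays on the horizontal axis and the sheet arrays on the vertical axis, each of 14217 genes in grey, the coronins as coloured symbols and dashed lines at 2-fold, from 1 array per condition. Coro1a lies at 2.12 and 1.34, Coro6 at -0.28 and 0.59, and the other 5 coronins lie inside the dashed square near the origin.

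Coro1a was also lower in the sheet than in the monolayer. The log2 difference was -1.03 in L6-HGF, which is 2.04-fold and just past the threshold, and -0.25 in L6-WT. The comparison within L6-HGF uses the same monolayer array as the comparison of the monolayers, so the high value on that array enters both. Sheets minus monolayers, the log2 difference between the lines had changed by -0.78, and 2.45% of all genes had a more negative value of this quantity. With quantile normalization of the centred values it was -1.21, which is past 2-fold. For the 45 control probe sets it had an SD of 0.19, and the largest of them in size was 0.69. For Coro1a this quantity contains the difference in monolayers by which the family was chosen. Its place among all genes and its size beside the controls are therefore a description only. With 1 array in each condition this change of the difference between the lines with the format leaves no residual error and could not be tested.

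Of the other 5 members, Coro1c, Coro2b and Coro7 had lower values in sheets than in monolayers in each line. The log2 difference of Coro1c was -0.24 in L6-WT and -0.35 in L6-HGF, that of Coro2b -0.31 and -0.25, and that of Coro7 -0.26 and -0.39. Coro1b, with 0.03 and 0.10, and Coro2a, with 0.0016 and 0.12, lay near 0. The 2 probe sets of Coro2a disagreed in sign in L6-WT, with 0.16 and -0.15, and had 0.03 and 0.21 in L6-HGF. The 2 probe sets of Coro1c differed in size, with -0.44 and -0.05 in L6-WT and -0.51 and -0.19 in L6-HGF. In L6-WT none of the 6 members was past 2-fold, against 1.21% of all genes, and none past 1.5-fold, against 7.13%. In L6-HGF, Coro1a was the member past 2-fold, against 3.75% of all genes, and past 1.5-fold, against 11.3%. The 2 lines share no array in this comparison, and the size of the values of Coro1c, Coro2b and Coro7 was above the SD of the control probe sets in each line. The largest control value was 0.49 in size in L6-WT, above all of theirs, and 0.34 in L6-HGF. In size they exceeded between 58.6% (Coro2b in L6-HGF) and 77.2% (Coro7 in L6-HGF) of all genes. The Coro1c probe set at -0.05 in L6-WT was below the SD of 0.18.

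**Figure D3:**
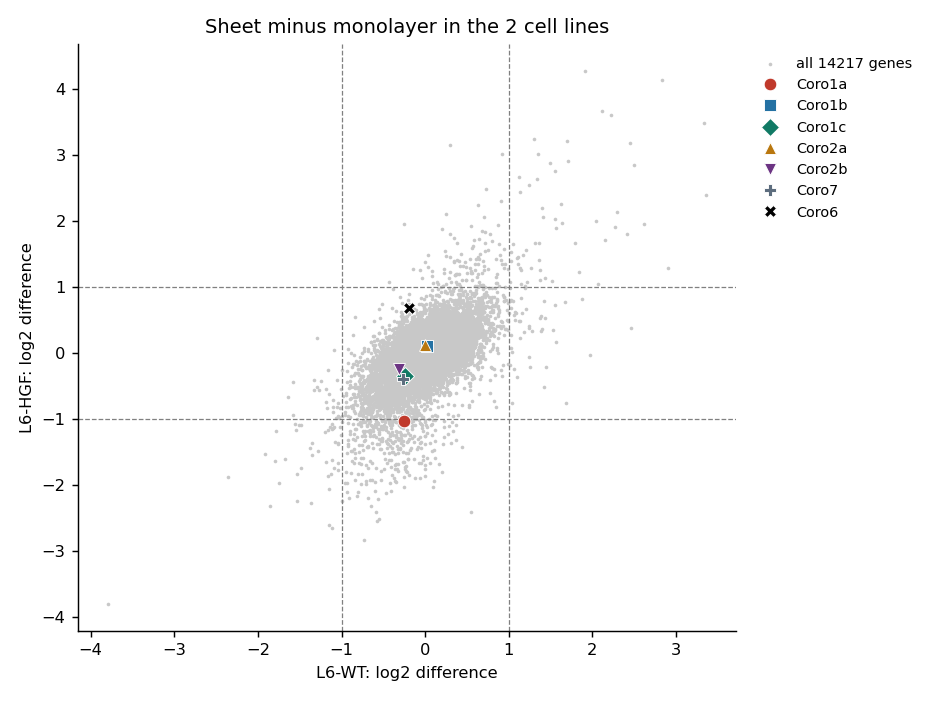
Log2 difference between sheet and monolayer in L6-WT (horizontal axis) and in L6-HGF (vertical axis), with each of 14217 genes in grey, the coronins as coloured symbols and dashed lines at 2-fold, from 1 array per condition. Coro1a lies at -0.25 and -1.03, on the lower dashed line, Coro1c, Coro2b and Coro7 lie below 0 on each axis, and Coro6 lies at -0.19 and 0.68.

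A limma model over all 4 arrays, with terms for cells and for format and 1 residual degree of freedom, is the test that this design allows for the members not chosen by their value. At an adjusted p under 0.05 (Benjamini-Hochberg over 31042 probe sets) it called 0 probe sets (0%) for the term of cells and 0 (0%) for the term of format. After quantile normalization of the centred values limma called 53 probe sets for format, none of a coronin, and 0 for cells. At an unadjusted p under 0.05, limma had 1475 probe sets higher and 1502 lower in L6-HGF, and 2753 higher and 3580 lower in sheets. For the 7 probe sets of the other 5 members, the adjusted p from limma lay between 0.528 (Coro7) and 0.862 (Coro1c) for cells, and between 0.176 (Coro1c) and 0.927 (Coro2a) for format. The common effect of Coro7 between the lines was -0.29 with an SE of 0.11, and that of the Coro1c probe set with the smaller adjusted p for format was -0.47 with an SE of 0.10. The residual also takes in any true change of an effect between formats or lines.

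Coro6 differed from the gene means of the 6 members in that its difference between the lines had opposite signs in the 2 formats. Its values were -0.19 in the L6-HGF monolayer, 0.49 in the L6-HGF sheet, 0.09 in the L6-WT monolayer and -0.09 in the L6-WT sheet. The L6-HGF sheet was thus its high array, as it was for Coro1b (0.12) and Coro2a (0.11). L6-HGF minus L6-WT of Coro6 gave -0.28 in monolayers and 0.59 in sheets. Of the 2 probe sets of Coro2a, 1 also had opposite signs, with -0.06 in monolayers and 0.31 in sheets. Where Coro1a had its highest value, in the L6-HGF monolayer, Coro6 had its lowest.

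The partners through which coronins act on actin were read from 4 lists with 54 genes, of which 48 were measured by a probe set with 1 symbol. Past 2-fold between L6-HGF and L6-WT were 0 of 48 in monolayers and 0 of 48 in sheets. This is close to the shares of all genes, 0.535% and 1.44%, and is therefore no result about the partners. Over the 48 genes the median was 0.03 (log2) in each format, against 0.0016 and -0.02 over all genes, with 27 of 48 above 0 in each format.

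In the Arp2/3 complex, which branches actin filaments and is held back by coronins, 9 of 10 genes were measured. Their median difference between lines was 0.07 in monolayers and -0.08 in sheets. The subunit Arpc1b had -0.28 and -0.31 in the 2 formats, Arpc2 had 0.23 and 0.17, and the actin-related protein Actr2 had 0.07 and -0.03. No subunit came near the value of Coro1a, but Coro1a was chosen for its large value, so this is no result about the complex.

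Among 12 measured activators and inhibitors of the complex, the median was 0.03 in monolayers and 0.04 in sheets. Gmfg, a debranching factor that is most abundant in blood cells, had the largest difference of them in monolayers, 0.62, with 0.04 in sheets. Cttn, which stabilises branches at the cortex, had 0.0017 and -0.06, and Hcls1, its relative of blood cells, had 0.02 and 0.17.

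In the cofilin module, which disassembles filaments, 12 of 14 genes were measured, with a median of 0.04 in monolayers and 0.05 in sheets. Cofilin 2, Cfl2, had 0.05 and 0.03, the Slingshot phosphatase Ssh1 had -0.19 and 0.26, and Wdr1, which works with cofilin, had 0.18 and 0.30. The cyclase-associated protein Cap2 had the most negative value of the 4 lists in monolayers, at -0.58, with 0.08 in sheets.

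Among 15 measured signalling partners, the median was -0.03 in monolayers and 0.02 in sheets. The kinase Pak1, which acts below Rac1 and Cdc42, had -0.49 and -0.54, and the calcium channel Itpr1 had -0.44 and -0.58. Rac1 had -0.23 and -0.13, and Rcc2, which acts with Coro1c on Rac1, had 0.33 and -0.03.

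**Figure D4:**
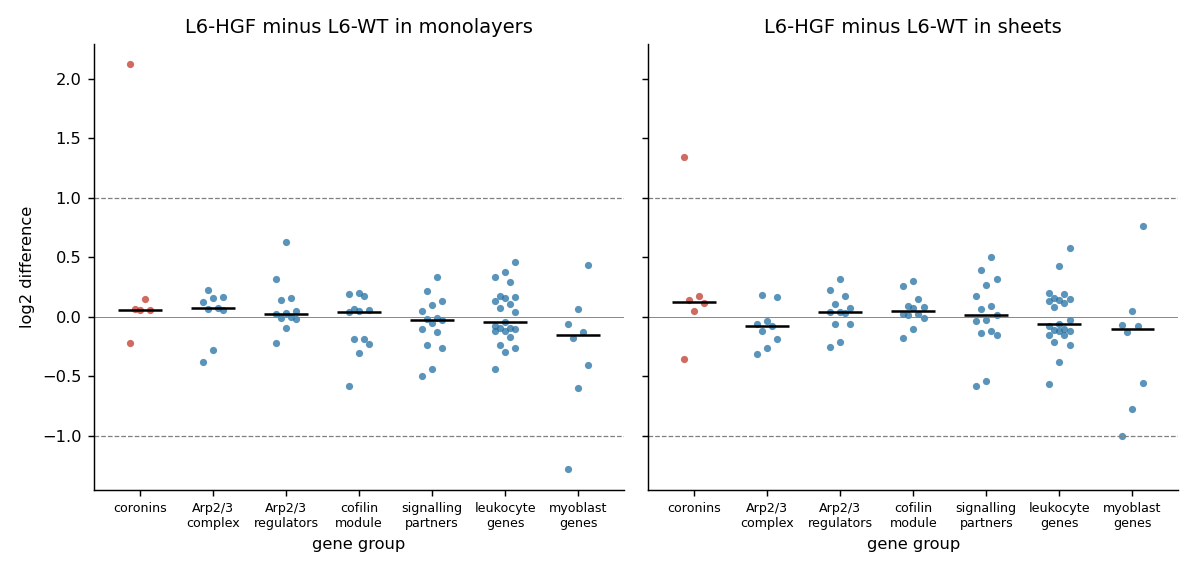
L6-HGF minus L6-WT on the log2 scale (vertical axis), for monolayers (left) and sheets (right), of the 6 coronins (red) and of genes of 4 partner lists, leukocyte genes and myoblast genes (blue), with each gene as 1 point, bars at the medians, dashed lines at 2-fold and 1 array per condition. Points are spread sideways for legibility. Coro1a is the point past 2-fold among the coronins, no partner or leukocyte gene lies past 2-fold, and Mymk lies past it among the myoblast genes.

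Most partners had lower values in sheets than in monolayers. Of the 48 genes, 37 had lower values in the sheet than in the monolayer in L6-WT and 35 in L6-HGF, where 45.6% and 45.9% of all genes did. The median log2 difference was -0.21 in L6-WT and -0.17 in L6-HGF, against 0.03 and 0.03 over all genes. Rac1 had -0.65 and -0.55, Arpc1b -0.60 and -0.63, Wdr1 -0.54 and -0.42 and Itpr1 -0.74 and -0.88. The other way went 11 of 48 in L6-WT and 13 in L6-HGF, among them Hcls1 with 0.29 and 0.44. None of the 48 was past 2-fold in either line, near the 1.21% of all genes in L6-WT and 3.75% in L6-HGF, and the median of the list was not tested. Coro1c, Coro2b and Coro7 had values below 0 in these comparisons too. Coro1b, with 0.03 and 0.10, and Coro2a, with 0.0016 and 0.12, did not, although 1 of the 2 probe sets of Coro2a had -0.15 in L6-WT.

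Leukocyte genes were read because Coro1a is best known from blood cells. Of 26 such genes, 23 were measured, and 0 were past 2-fold in any of the 4 comparisons. Of all genes, 0.535% and 1.44% were past it between the lines and 1.21% and 3.75% between the formats, so 0 of 23 is near the background and no result about leukocyte genes. Their median difference between the lines was -0.04 in monolayers and -0.06 in sheets, with 11 and 10 of 23 above 0. Ptprc (CD45), the pan-leukocyte antigen, had -0.43 and -0.15, and Cd53 had -0.10 and -0.06. The highest values were those of Runx3, a transcription factor of T cells, with 0.46 and 0.57, followed by the actin-bundling Lcp1, with 0.38 and 0.42. The part of other cell types in the values of Coro1a was not tested. Of 8 measured myoblast genes, 6 had values below 0 in each format, where 49.4% of all genes in monolayers and 53.7% in sheets did. The fusion factor Mymk was past 2-fold lower with -1.28 in monolayers and just past it with -1.002 in sheets, whereas desmin, Des, had 0.43 and 0.76.

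The genes with the pattern most like Coro1a were sought outside the family, as those with the smallest Euclidean distance over the 4 centred values. In order of distance these were Krt19, a keratin of simple epithelia, at 0.53, the complement inhibitor Cd55 at 0.58, the G protein subunit Gnai1 at 0.73, the mitochondrial calcium-binding protein Efhd1 at 0.79 and the secreted BMP regulator Bmper at 0.89. All 5 were past 2-fold in monolayers, as their closeness to Coro1a requires, and Krt19 was also past it in sheets, with a log2 difference of 1.30. Krt19 had 1.05 in the L6-HGF monolayer, 0.58 in the L6-HGF sheet, -0.58 in the L6-WT monolayer and -0.72 in the L6-WT sheet. Of the 5, Gnai1 differed most between the formats, with 1.64 in monolayers and 0.46 in sheets. The order of distance held all of the 14217 genes but Coro1a. In it Coro1c, the closest coronin, stood at place 1438, and Coro7, the farthest of the members, at place 11538. The distance is taken from the values of Coro1a, which include the difference by which the family was chosen. A gene with small differences is far from Coro1a for that reason, so the places of the coronins are a description only.

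**Figure D5:**
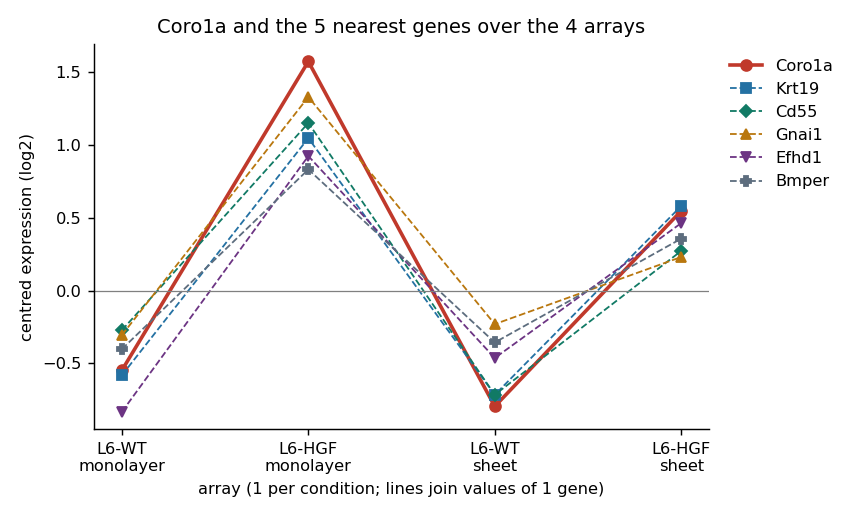
Centred expression (log2, vertical axis) of Coro1a and its 5 nearest genes on the 4 arrays (horizontal axis, 1 array per condition, no error bars), with lines joining the values of 1 gene. All 6 genes are highest in the L6-HGF monolayer and second highest in the L6-HGF sheet, and Coro1a has the highest value of them, 1.57, in the L6-HGF monolayer.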

How the data were processed

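RNA of 4 cultures was hybridised to Affymetrix Rat Genome arrays, 1 per condition. After RMA, the authors scaled to the median and deposited log2 values centred on the median of the 4 arrays for each probe set; the version of RMA is not given in the sources used here. Of 31099 probe sets, 57 controls were left out, and 20826 of the remaining 31042 had 1 gene symbol. A gene is the mean of its probe sets. All 9 coronin probe sets, Coro6 included, carry the current symbol of their Entrez identifier. Differences were taken between arrays with a 2-fold threshold, and limma 3.58.1 (R 4.3.3) was fitted to all 31042 probe sets. Steps were tested on simulated data. Python 3.11.15, pandas 2.3.3, numpy 2.4.6 and matplotlib 3.10.9 were used. Named were all coronins, the 5 genes nearest to Coro1a, list members past 2-fold in any comparison and up to 4 others of each role or list, these others being picked after their values were seen. The members and lists were chosen with earlier results of these data known. Alternatives were the median of probe sets, probe sets without _x_at and _s_at, subtracted array medians, quantile normalization, a 1.5-fold threshold and limma models without a term. No signal level is left in the values, so no filter on dim probe sets could be made.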

Additional observations from a re-analysis of the deposited data

Results flagged for a closer look

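Coro6 differed between lines in opposite directions in the 2 formats, L6-HGF minus L6-WT being -0.28 (log2) in monolayers and 0.59 in sheets. Sheet against monolayer, it had -0.19 in L6-WT and 0.68 in L6-HGF, which is the same contrast over the 4 arrays seen the other way. The difference between the lines in sheets exceeded that in monolayers by 0.87, which ranked 94 among 14217 genes from the most positive. For the 45 control probe sets this quantity had an SD of 0.19, and the largest of them in size was 0.69. Coro6 was flagged for its opposite signs in the 2 formats, which enter this quantity, so its place is a description only. With 1 array per condition the difference was not tested. It rests on 1 probe set, and its sign in each comparison was the same with each scaling of the arrays that was tried.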

How the results depend on the processing

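Quantile normalization, which here acts on centred values and is no normalization of signal levels, moved Coro1a by more than the SD of the control probe sets. On the log2 scale, L6-HGF minus L6-WT in monolayers was 2.57, sheet minus monolayer in L6-HGF -1.40, and the change of the difference between the lines from monolayers to sheets -1.21. Under it, limma called 53 probe sets for the term of format, none of a coronin, against 0 with the deposited values. The cause was not tested. The number of the 6 members past 2-fold was the same in each of the 4 comparisons under each alternative run, the 1.5-fold threshold included, and no called value changed sign. The median of probe sets and the filter on _x_at and _s_at could not have changed a coronin value. No coronin has more than 2 probe sets, so that median and mean are equal, and none has a probe set of those types. Quantile normalization also moved the number of all genes past 2-fold in sheets between lines from 205 to 94, with 105 in monolayers in place of 76. When genes past 2-fold in monolayers were ordered by correlation with Coro1a in place of distance, 4 of the 5 nearest genes were shared, with Hopx in place of Efhd1. Precision is limited by the number of arrays, and without signal levels the noise of dim probe sets was not tested. Coro1a, Coro1b, Coro2b and Coro7 rest on 1 probe set each.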
